A study of Danio rerio with 6 samples.

Results

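The small ribosomal subunit protein genes of zebrafish were compared between hnrnpul1/1l mutant and wild type embryos. The genes were rpsa, faua, faub and every RefSeq gene whose symbol starts with rps and a digit, without the rps6k kinase genes and rps19bp1. This gave 37 genes out of the 14315 genes with a symbol in the counts. The RNA came from whole embryos at 72 hours postfertilization (hpf) with the tail removed for genotyping, in pools of 8 embryos. Wild type embryos gave 3 pools, and another 3 pools were of embryos homozygous for mutations in both hnrnpul1 and its close relative hnrnpul1l. The study's standard double mutants carry the ca54 allele of hnrnpul1 and the ca52 allele of hnrnpul1l, both CRISPR insertions predicted to truncate the protein, and the labels do not give the alleles of these pools. In one account of the study the wild types came from an incross of hnrnpul1l heterozygotes while the mutants had hnrnpul1l mutant mothers, and in another the wild types were siblings, so a difference in parents cannot be told apart from genotype.

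The small subunit reads the messenger RNA during translation and holds the decoding centre, where the codon meets the transfer RNA. It is built from the 18S ribosomal RNA and a set of proteins, each normally present in a single copy per ribosome, and it has a head and a body with a platform. Messenger RNAs of ribosomal protein genes in vertebrates carry a 5' terminal oligopyrimidine (TOP) tract, through which growth signals adjust their translation together. In humans, loss of a single copy of several of these genes causes Diamond-Blackfan anaemia, a failure of red blood cell production that can come with limb and craniofacial anomalies.

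Total estimated counts were 52250779 to 61266049 in the wild type pools and 40891309 to 62580215 in the mutant pools. Values below are CPM, edgeR's unit for a count taken relative to the total of its library, with totals scaled by TMM factors. These factors were 1.017, 1.021 and 1.093 in wild type pools 1 to 3 and 0.951, 0.913 and 1.015 in mutant pools 1 to 3. Every mutant factor was below every wild type factor, so the scaling raised mutant CPM relative to wild type CPM. The CPM values are not divided by transcript length, so those of different genes are not ranked as levels. For the mutated gene hnrnpul1, wild type pools held 127, 122 and 118 CPM and mutant pools 47.7, 45.7 and 22.1 CPM, and each library matched its label (log2 fold change -1.67, standard error (SE) 0.30, edgeR adjusted p = 0.328). The hnrnpul1l gene was not analysed here. The whole-embryo label was matched by markers of muscle, skin, neurons, lens, retina, liver and red blood cells, all of which were detected, while 3 of the 5 exocrine pancreas genes tested had a mean below 1 CPM. In RNA from whole embryos, fewer cells of a type and less RNA per cell cannot be told apart.

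Most small subunit genes lay higher in the mutant pools. Of the 37 genes, 35 had a log2 fold change above 0, against 49.1% of all 13553 transcripts tested. Their median was 0.34, against -0.01 over all transcripts. By the quasi-likelihood test of edgeR, 0 small subunit genes had an adjusted p below 0.05, the smallest being 0.350 for rps27.1, as did 0% of all transcripts. At an unadjusted p below 0.05 there were 11 genes higher in mutants (among them rps27.1, rps10, rps24, rps27.2, rps23, rps15a, rps7, rps2, rps20 and rps3a) and 0 lower, or 29.7% of the 37, against 4.18% of all transcripts higher and 4.61% lower. For 17 genes, or 45.9%, every mutant pool lay above every wild type pool, and for 0 genes every mutant pool lay below. Over all transcripts these shares were 7.71% and 9.08%. The size of the differences was moderate: 10 genes exceeded 1.5-fold, among them the barely detected rps8b, and only rps27.1 exceeded 2-fold. The shares of all transcripts past these sizes were not computed, so these counts are not read as a trait of these genes.

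The counts depended on single pools, on the scaling and on the tool. The number at an unadjusted p below 0.05 was 4 without wild type pool 3 and 16 without mutant pool 2. The share of all transcripts higher at that p also moved, to 3.26% and 5.92%, against 4.18%. Scaled by total counts, the median of all transcripts moved to -0.135 and that of the small subunit genes to 0.23. Of the 37 genes, 32 lay above 0, 8 had an unadjusted p below 0.05 and 11 were separated upward. Over all transcripts 5.15% were separated upward with that scaling, against 7.71% with TMM scaling. Total-count scaling gave 330 transcripts higher (2.43%) and 1042 lower at an unadjusted p below 0.05, where TMM scaling gave 566 (4.18%) and 625. DESeq2 called 5 of the genes at an adjusted p below 0.05 (among them rps27.1, rps24, rps7 and rps10), or 13.5%, against 0.703% of all transcripts called as higher. The study itself lists 9 of the 37 genes as higher from these same pools (among them faub, rps7, rps15a, rps20, rps24, rps27.1, rps27.2 and rps29), so these 9 are not independent evidence of a direction. The other 28 genes come from the same pools and are what that choice left, so they are no independent evidence either, and 26 of them lay above 0 with a median of 0.26.

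**Figure D1:**
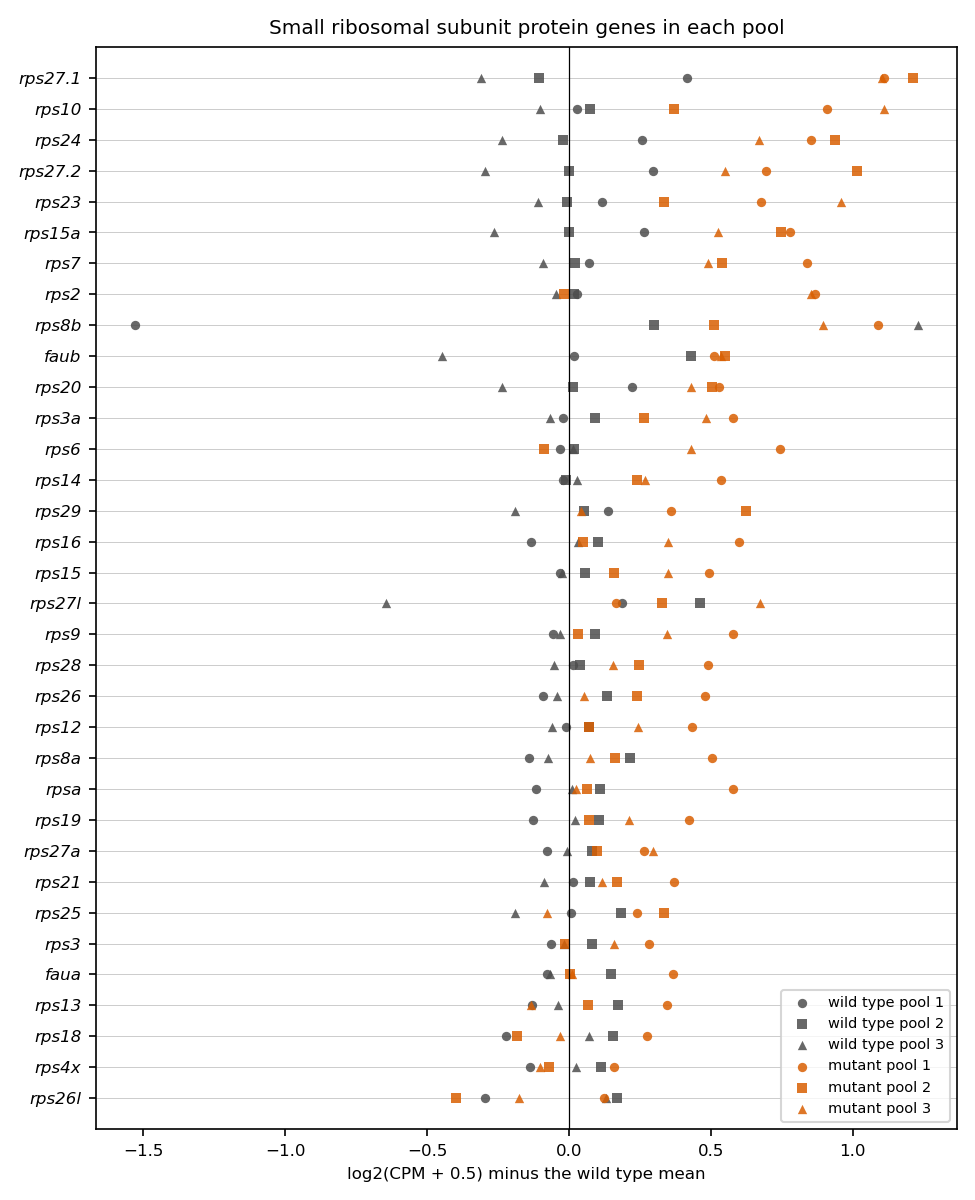
Each row is 1 of 34 small subunit genes and each point a pool (grey, wild type; orange, mutant), placed at its log2(CPM + 0.5) minus the mean of the 3 wild type pools and ordered by fold change. The orange points lie to the right of all grey points for 16 of the 34 genes drawn, where 7.71% of all transcripts were separated in this way. The groups overlap for the rest, from rps2 and rps8b high in the order to the lowest rows. Wild type pool 1 of rps8b lies far to the left because its count was 0.

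The largest difference was that of rps27.1, which encodes the zinc-binding ribosomal protein S27 (eS27) of the subunit body. It had 2268, 1583 and 1374 CPM in wild type pools 1 to 3 and 3668, 3939.5 and 3659 CPM in the mutant pools. All 3 mutant pools lay well above the highest wild type pool. Its log2 fold change of 1.11 (SE 0.24, edgeR adjusted p = 0.350) lay between 0.96 and 1.34 with each pool left out in turn.

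Next came rps10, whose protein sits in the subunit head near the path of the messenger RNA and which is a Diamond-Blackfan anaemia gene in humans. Its values were 1459, 1507 and 1332 CPM in wild type and 2688, 1849 and 3084 CPM in mutants. The groups did not overlap, but mutant pool 2 was the closest to wild type. The log2 fold change was 0.83 (SE 0.23, edgeR adjusted p = 0.431). Another human Diamond-Blackfan anaemia gene, rps24, had 2747, 2266 and 1954 CPM in wild type and 4155, 4405 and 3655 CPM in mutants. Here mutant pool 2 was the highest and the groups were again apart, with a log2 fold change of 0.81 (SE 0.21, edgeR adjusted p = 0.407).

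The second S27 gene, rps27.2, had 1660.1, 1351 and 1099 CPM in wild type and 2183, 2727 and 1979 CPM in mutants. Its groups did not overlap, and the log2 fold change was 0.75 (SE 0.23, edgeR adjusted p = 0.473). The decoding centre protein S23 is encoded by rps23, with 1671, 1533 and 1431 CPM in wild type and 2466, 1944 and 2995 CPM in mutants. Every mutant pool was above every wild type pool, and mutant pool 3 was the highest. The log2 fold change was 0.68 (SE 0.22, edgeR adjusted p = 0.474).

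Of the other genes at an unadjusted p below 0.05, rps15a and rps7 had log2 fold changes of 0.67 and 0.63, and rps3a had 0.45, all without overlap between the groups. They encode proteins of the body and platform, and human RPS7 also binds the p53 regulator MDM2. Also among these 11 were rps2 and rps20, which together with rpsa took the most counts of the 37. At the entry of the messenger RNA channel lies S2, encoded by rps2, which had 3801, 3776 and 3615 CPM in wild type and 6805, 3684 and 6741 CPM in mutants. Mutant pools 1 and 3 were far above wild type and mutant pool 2 was inside its range, so the log2 fold change of 0.62 (SE 0.27) became 0.90 without mutant pool 2 and 0.49 without mutant pool 3. For rps20, which encodes a protein of the head, the values were 3694, 3199 and 2689 CPM in wild type and 4565, 4493 and 4263 CPM in mutants. The mutant pools were close to each other and all above wild type, with a log2 fold change of 0.48 (SE 0.20). The rpsa gene, whose product is also known as a laminin receptor, had 3809, 4455 and 4164 CPM in wild type and 6173, 4319 and 4200.0 CPM in mutants. Only mutant pool 1 stood above the wild types, and the log2 fold change of 0.24 (SE 0.22) was 0.07 without it.

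The genes at the other end of the order had overlapping groups. The lowest was rps26l, a copy of rps26, with 586, 809 and 787 CPM in wild type and 784, 546 and 637 CPM in mutants (log2 fold change -0.15, SE 0.23). The body protein gene rps4x had 1384, 1643 and 1547 CPM in wild type and 1698, 1449 and 1416 CPM in mutants, a log2 fold change of -0.0035 (SE 0.19). Its direction turned with the scaling and with the pool left out. In rps18, which encodes a head protein facing the large subunit, wild type pools had 1151, 1495 and 1410.3 CPM and mutant pools 1627, 1184 and 1315 CPM, a log2 fold change of 0.02 (SE 0.21). These groups mixed, with mutant pool 1 the highest of all. The values of rps13 were 1269.9, 1565 and 1352 CPM in wild type and 1766.5, 1456 and 1267 CPM in mutants (0.10, SE 0.21). In rps4x, rps18 and rps13, mutant pool 1 was above every wild type pool and the other mutant pools were not. Under total-count scaling rps18 and rps13 turned to -0.10 and -0.024.

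Other genes lay between these groups. The S6 gene rps6, whose product is phosphorylated by the S6 kinases, had a log2 fold change of 0.40 (SE 0.24), with mutant pools at 3374, 1894 and 2712 CPM around a wild type range of 1971 to 2042 CPM. The platform protein gene rps14, linked in humans to the anaemia of the 5q- syndrome, was tight in wild type at 1387.5 to 1436 CPM and was higher in each mutant pool, at 2041, 1661 and 1693 CPM (0.35, SE 0.18). Its groups did not overlap, whereas those of rps6 did. For rps19, the first gene to be tied to Diamond-Blackfan anaemia in humans, the log2 fold change was 0.24 (SE 0.19), and mutant pool 2 lay inside the wild type range. The ubiquitin fusion gene rps27a, which supplies both ubiquitin and a head protein, had a log2 fold change of 0.22 (SE 0.18), with wild type pools up to 2111 CPM and the lowest mutant pool at 2134 CPM. The log2 fold change was 0.35 for rps29, 0.35 for rps16, 0.34 for rps15, 0.33 for rps9 and 0.30 for rps28. It was 0.26 for rps12, 0.22 for rps21, 0.17 for rps25 and 0.15 for rps3. Of these genes, rps15, rps28, rps12 and rps21 had separated groups, rps12 by a margin of 2097 CPM in wild type pool 2 against 2098 CPM in mutant pool 2.

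The genes did not follow the same order across the pools. Mutant pool 1 was above every wild type pool for 34 of the 37 genes, mutant pool 3 for 24 and mutant pool 2 for 21. The matching shares over all transcripts were not computed, so these counts are not read as a trait of these genes. For rps2, rps6, rps16, rps9, rps19 and rps3 only mutant pool 2 failed to exceed the wild types, and for rps29, rps26 and rps25 only mutant pool 3 did. Averaged as a median over the 37 genes, log2 CPM lay 0.51, 0.24 and 0.30 above the wild type mean in mutant pools 1 to 3, and -0.02, 0.08 and -0.06 from it in wild type pools 1 to 3. The wild type pools also differed by gene. Of the 11 genes at an unadjusted p below 0.05, 9 were highest in wild type pool 1 and all 11 were lowest in wild type pool 3, while of the other 26 genes 22 were highest in wild type pool 2 and 18 were lowest in wild type pool 1. These counts describe the same pools that gave the p-values and were not tested. Their shares over all transcripts were not computed either, so they are not read as a trait of these genes.

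By place in the subunit, the 14 genes for proteins of the head had a median log2 fold change of 0.28, with all 14 above 0, 2 higher at an unadjusted p below 0.05 and 6 separated upward, where all transcripts gave 4.18% and 7.71%. The 23 genes for the body and platform had a median of 0.40, with 21 above 0, 9 higher at an unadjusted p below 0.05 and 11 separated upward. The spread within each part, from 0.02 to 0.83 in the head and from -0.15 to 1.11 in the body, was larger than the gap between the medians, and the difference between the parts was not tested. Of the 13 genes whose human counterparts (or their close copies) are Diamond-Blackfan anaemia genes, 12 lay above 0 with a median of 0.55, and 7 had an unadjusted p below 0.05 (rps7, rps10, rps15a, rps20, rps24, rps27.1 and rps27.2), against 29.7% of the 37 genes and 4.18% of all transcripts. This list holds 7 of the 9 genes that the study lists as higher from the same pools, so its count is not independent evidence.

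**Figure D2:**
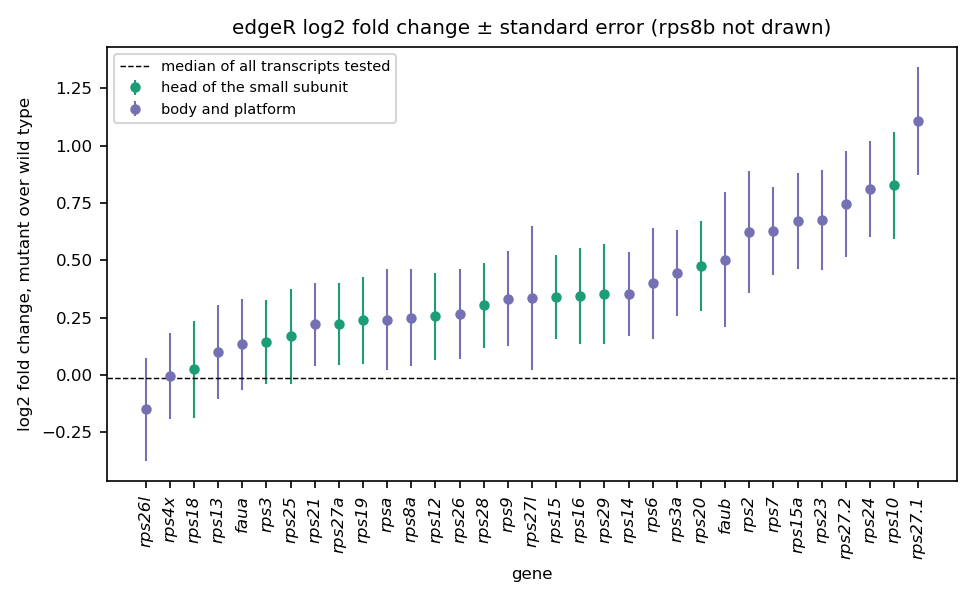
Points give edgeR's log2 fold change of mutant over wild type with its standard error as bars, in order of size, for the genes of the head (green) and of the body and platform (purple) that are shown singly, beside the median of all transcripts (dashed line, -0.01). The head genes spread through the whole order, rps10 at 0.83 and rps18 at 0.02, and rps8b, with a SE of 1.49, is not drawn.

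Paralogues were set beside each other in each pool as the log2 ratio of their CPM, with 0.5 CPM added to both. The ratio is not corrected for transcript length, so only its difference between the genotypes is read. There were 6 such pairs, and with 3 pools against 3 an exact two-sided permutation test cannot give a p below 0.1. The ratio of rps27.1 to rps27.2 was 0.45, 0.23 and 0.32 in wild type pools and 0.75, 0.53 and 0.89 in mutant pools. Both genes were higher in mutants, and rps27.1 by more in every pool, a difference of 0.39 in the ratio (exact permutation p = 0.1, 0.2 adjusted over the 6 pairs). The third gene of the family, rps27l, is related to a human gene that p53 activates, and had 47.0, 57.0 and 26.2 CPM in wild type and 46.3, 52.0 and 66.0 CPM in mutants. Its groups overlapped, with a log2 fold change of 0.34 (SE 0.31), and its wild type pools spread widely. The ratio of rps27.1 to rps27l was higher in mutants by 0.75 (exact permutation p = 0.1, 0.2 adjusted over the 6 pairs). It was higher by 0.47 without wild type pool 2. The separation was narrow, with 5.78 in mutant pool 3 against 5.69 in wild type pool 3. The ratio of rps27.2 to rps27l was higher in mutants by 0.36 (exact permutation p = 0.4).

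The S26 protein contacts the messenger RNA near the exit of its channel, and its 2 genes lay on either side of 0. For rps26 the values were 735, 858 and 759 CPM in wild type and 1090.5, 924 and 811 CPM in mutants, with a log2 fold change of 0.26 (SE 0.20), against -0.15 for rps26l. The log2 ratio of rps26 to rps26l was 0.33, 0.08 and -0.05 in wild type and 0.48, 0.76 and 0.35 in mutants. The ratio was higher in every mutant pool than in any wild type pool, by 0.41 on average (exact permutation p = 0.1, 0.2 adjusted over the 6 pairs), though neither gene by itself had separated groups. Both genes had counts that were not whole numbers in 3 of the 6 libraries, so some reads were divided between transcripts by the estimate.

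The S8 protein of the body is encoded by rps8a and rps8b. In rps8a there were 2578, 3300.2 and 2697.5 CPM in wild type and 4034, 3179.7 and 2990.0 CPM in mutants, and only mutant pool 1 was above the wild types (log2 fold change 0.25, SE 0.21). The rps8b transcript was near the detection limit, with estimated counts of 0, 68 and 193 in wild type and 153, 58 and 117 in mutants. A count of 0 allows up to 3 counts, by counting error alone. Its log2 fold change of 0.60 had a SE of 1.49, and the change in the ratio of rps8a to rps8b, -0.58 (exact permutation p = 0.6), turned to 0.11 without wild type pool 1. The fusion of a ubiquitin-like protein with ribosomal protein S30 is encoded by faua and faub. In faua there were 1205, 1408 and 1213 CPM in wild type and 1640.2, 1275 and 1282 CPM in mutants, and in faub 14.4, 19.3 and 10.3 CPM in wild type and 20.4, 21.0 and 20.8 CPM in mutants. The mutant pools of faub were nearly equal and just above the highest wild type pool, while those of faua overlapped with wild type. The log2 ratio of faua to faub was lower in mutants by 0.40 on average (-0.40, exact permutation p = 0.2), with overlap between the groups.

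**Figure D3:**
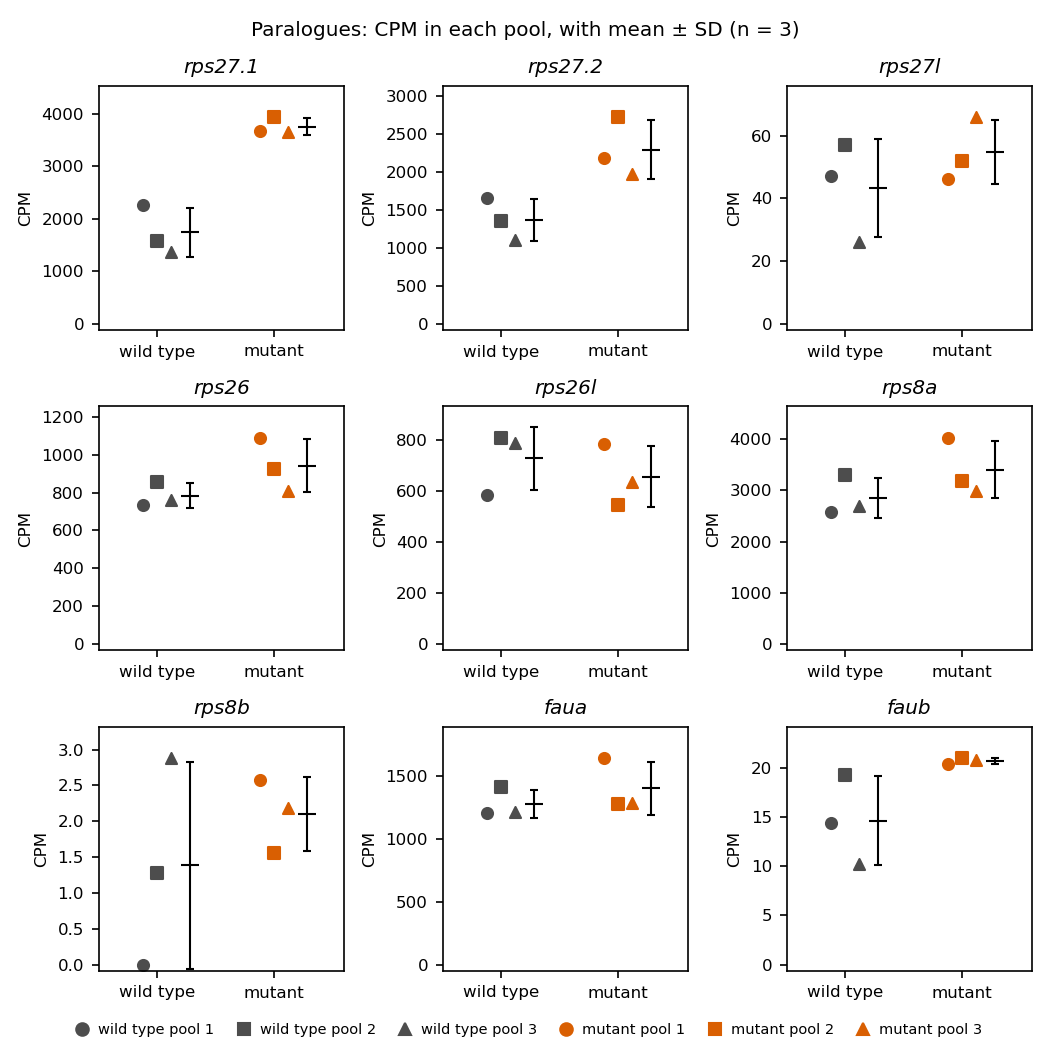
CPM of the 9 genes with a paralogue among the small subunit genes, with a point per pool and the mean ± SD (n = 3) beside each group on a linear axis. The mutant pools of rps27.1, rps27.2 and faub lie above all wild type pools, and those of rps27l, rps26, rps26l, rps8a, rps8b and faua overlap with them.

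A second RefSeq transcript was counted for rps12 and for rps24. In rps12 the main transcript NM_001282177 took 98.4% to 99.2% of the gene's CPM over the 6 pools. In rps24 the main transcript NM_001012316 took at least 99.95% in every pool. Nearly all of the CPM of these genes thus came from a single transcript each, and the second transcripts had overlapping groups. In rps12 the second transcript had 33.8 CPM in wild type pool 2 and 16.3 CPM in mutant pool 2. That gap was wider than the opposite margin of the main transcript, so with both transcripts added the rps12 groups overlapped. With counts summed per gene 16 of the 37 genes were separated, against 17. Over all genes 7.79% were then separated upward, against 7.71% of all transcripts in the main fit. Of the 39 rows of the small subunit genes, 32 held whole numbers in every library, to within 0.001, and 7 did not, against 21.3% of all rows with a value that was not whole in some library.

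Summed over the 37 genes, the small subunit took 61641, 63522 and 57319 CPM in wild type and 90526, 75308 and 78748 CPM in mutants. The mutant mean was 1.34 times the wild type mean and the groups were apart, and with total-count scaling it was 1.23 times. As a share of all counts, without TMM scaling, small subunit rows took 6.27%, 6.49% and 6.27% in wild type. In mutants they took 8.62%, 6.87% and 7.99%, so mutant pool 2 lay much closer to wild type on this measure. The 49 genes of the large subunit summed to 91837, 96936 and 86011 CPM in wild type and 130624, 114000.0 and 112443 CPM in mutants, 1.30 times the wild type mean. The ratio of the small to the large sum was 0.671, 0.655 and 0.666 in wild type and 0.693, 0.661 and 0.700 in mutants. This ratio overlapped between the genotypes. Of the large subunit genes 43 lay above 0 with a median log2 fold change of 0.31, 19 had an unadjusted p below 0.05 in the higher direction and 0 in the lower, against 4.18% and 4.61% of all transcripts. Of the 49, 26 were separated upward and 1 downward, against 7.71% and 9.08% of all transcripts.

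**Figure D4:**
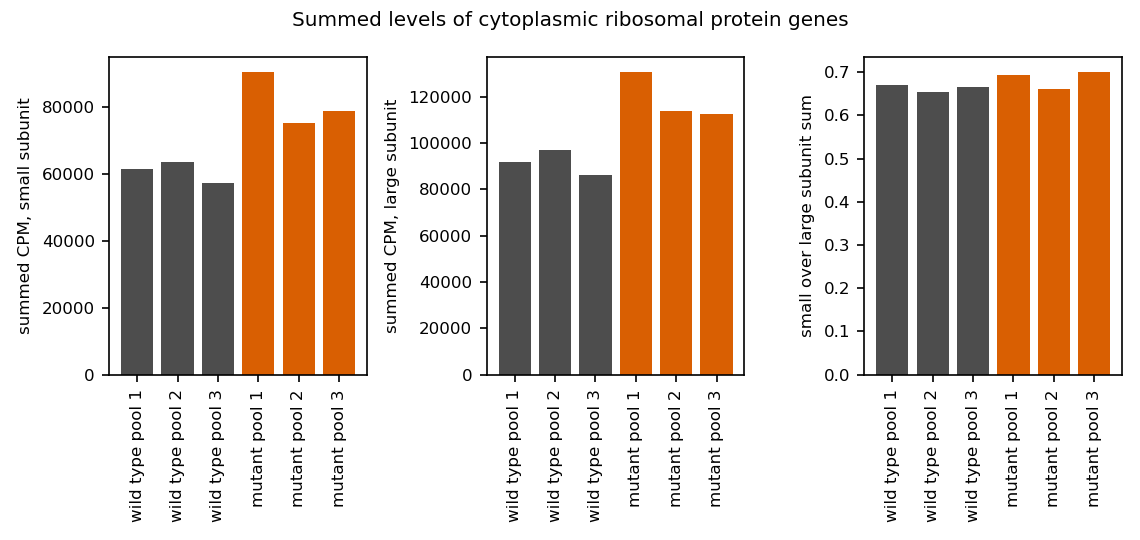
Bars give the summed CPM of the 37 small subunit genes, that of the 49 large subunit genes, and the ratio of these sums in each pool, from 0. Both sums are higher in all mutant pools (orange) than in any wild type pool (grey), and the ratio stays between 0.655 and 0.700.

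Other genes of the pathway were read from lists in the same way. Of 25 genes for other messenger RNAs of the TOP class, such as translation elongation factors and poly(A)-binding proteins, 16 lay above 0 and the median was 0.23 on the log2 scale. At an unadjusted p below 0.05, 5 were higher and 1 lower, against 4.18% and 4.61% of all transcripts. Of the 25, 6 were separated upward and 2 downward, against 7.71% and 9.08%. On this list btf3, which encodes part of the nascent polypeptide-associated complex at the ribosome, had the largest log2 fold change, 1.00 (SE 0.29). The lowest was that of the initiation factor gene eif4ba at -0.55 (SE 0.21). Of 48 genes for factors that assemble the small subunit, 32 lay above 0 with a median of 0.12. At an unadjusted p below 0.05, 3 of the 48 were higher and 0 lower, close to the 4.18% and 4.61% of all transcripts. Of the 48, 7 were separated upward and 4 downward, against 7.71% and 9.08% of all transcripts. They ran from -1.33 (SE 1.28) for wdr36 to 0.78 (SE 0.29) for bms1, a GTPase of early subunit assembly. Under total-count scaling the median of the assembly factors turned to -0.0037. The 6 S6 kinase genes tested had a median of -0.41, with 5 below 0, none at an unadjusted p below 0.05 and values from -1.25 for rps6ka3b to 0.02 for rps6ka4. None of these genes passed the adjustment in edgeR.

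Markers of several cell types differed between the genotypes in the same libraries. The 11 photoreceptor genes had sums of 7231 to 10766 CPM in wild types and 1195 to 4468 CPM in the mutant pools, with all 11 below 0. Mutant pool 1 had the lowest photoreceptor sum and the highest small subunit sum, while both sums were higher in mutant pool 3 than in mutant pool 2 (4468 against 3211 CPM for the photoreceptor genes). All 7 skin keratin and epidermal genes lay above 0 (3893 to 10250.0 CPM against 14375 to 28663 CPM), as did 7 of the 8 red blood cell genes (753 to 1176 CPM against 960.1 to 2294 CPM). Of the 13 genes of proliferating cells, 11 lay above 0 (1214 to 1395 CPM and 1425 to 1949 CPM), and all 9 neuronal genes lay below 0 (3756 to 5345 CPM and 2681 to 4956 CPM). None of the tested genes on these 5 lists was at 0 in any library, and the neuronal and red blood cell sums overlapped between the genotypes. The part of these cell types in the level of the small subunit genes was not tested. The skeletal muscle, lens and liver sums overlapped between the genotypes.

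**Figure D5:**
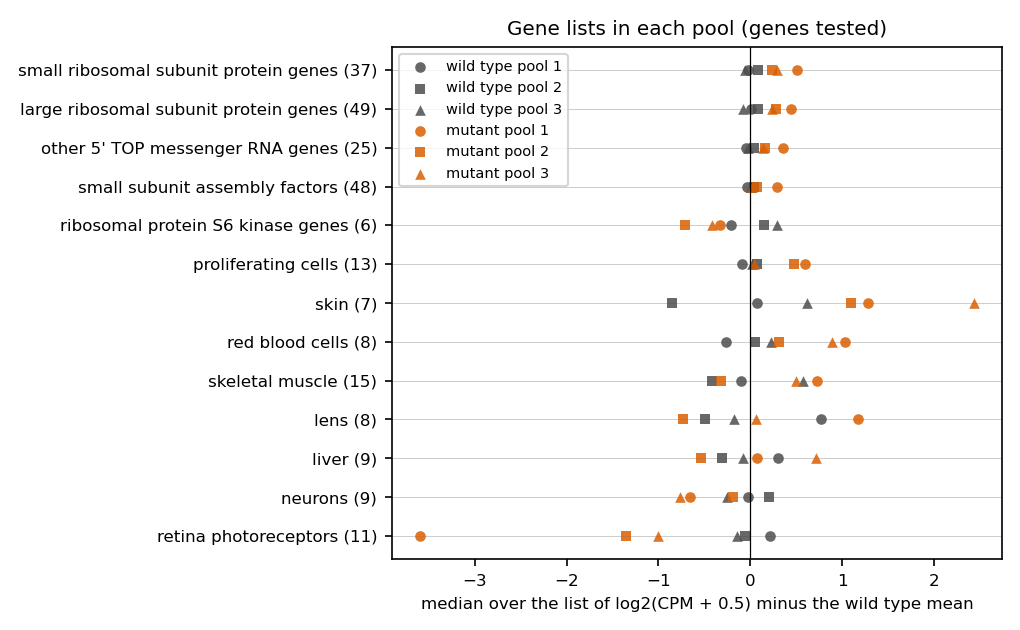
Each point is a pool, placed at the median over a gene list of log2(CPM + 0.5) minus the wild type mean, with the number of genes tested in brackets. Mutant pools (orange) lie above the wild types for both ribosomal subunits, the other TOP genes and the red blood cell and skin genes. They lie below the wild types for the photoreceptor and S6 kinase genes. The groups overlap for the assembly factor, proliferating cell, neuron, muscle, lens and liver genes. By summed CPM in place of these medians, the red blood cell genes overlapped and the proliferating cell genes did not.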

How the data were processed

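Libraries were made from polyadenylated RNA with a strand-specific kit and sequenced as paired ends. For 15455 RefSeq transcripts the deposited files hold estimated counts, not scaled for depth or length. The submitters' processing notes name bcl2fastq 2.20.0.422, kallisto 0.42.4 and danRer10 without their roles. Between 15.5% and 18.1% of a library's values were fractional (tolerance 0.001), and counts were rounded before fitting. Symbols came from a RefSeq table of the GRCz12tu assembly, which paired 14740 transcripts. Each gene was read from its row with the largest mean count.

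Counts were fitted with edgeR 4.0.16 in R 4.3.3 (filterByExpr, TMM, quasi-likelihood test of genotype, no covariate), with Benjamini-Hochberg adjustment over 13553 transcripts. The standard error is the log2 fold change divided by the square root of F. The alternatives were RLE size factors, total-count scaling, TMM without ribosomal protein genes, DESeq2 1.42.0, limma-voom 3.58.1, no filter, a mean of at least 5 CPM, one summed count for each gene, a block for replicate number, 0.1 in place of 0.5 CPM in the paralogue ratios, and each pool left out. On data simulated with the spread of these libraries, fold sizes were recovered close to those put in. However, edgeR called none of the smallest changes put in, which are the nearest in size to those reported here. Even these were larger than the change of every small subunit gene except rps27.1. DESeq2 called some of the smallest changes put in and also called unchanged transcripts, so its calls are read with that limit. The changes were put on transcripts drawn at random from all those tested, whatever their level. The simulation thus does not measure how often changes in the small subunit genes would be called. Genes and lists were chosen with earlier results of these data known. Values per pool are given for paralogues, the 5 largest and 5 smallest fold changes and the 3 genes with the most counts, and other values shown per pool were chosen after they were seen. Of the 37 genes, 3 are in the counts and sums but are not reported singly here. The study calls the pools biological replicates, but the labels do not say whether they came from separate clutches. The p-values thus measure only the spread between these pools of embryos, which may leave out that between clutches.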

Additional observations from a re-analysis of the deposited data

How the results depend on the processing

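Of the 34 small subunit genes shown singly, 31 kept the direction of their log2 fold change under each alternative run, 15 for most genes (rps8b did not reach a mean of 5 CPM and has no value there). The exceptions were rps13 (-0.024 under total-count scaling, -0.013 to 0.20 with each pool left out), rps18 (-0.10, and -0.087 to 0.15) and rps4x (0.015 with DESeq2 and with RLE size factors, and -0.069 to 0.062 with each pool left out). Outside these genes rps6ka4 was -0.11 when scaled by totals and -0.35 to 0.70 with each pool left out. The cause of these turns was not tested. DESeq2 called 210 transcripts and 5 small subunit genes, where edgeR called 0 of each. Total-count scaling gave a median of 0.23 over the small subunit genes and 11 separated genes, against 0.34 and 17. The ratio of their summed levels was 1.23 with that scaling, against 1.34. The share of all transcripts separated upward was then 5.15%, against 7.71%.

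With each pool left out in turn, the count called over all transcripts was 0 to 1. Small subunit genes at an unadjusted p below 0.05 then numbered 4 to 16. The share of all transcripts higher at that p was 2.03% to 5.92%, against 4.18%. The separated small subunit genes numbered 18 to 25 (with the share of all transcripts at 9.74% to 16.3%, against 7.71%). Their median was 0.23 to 0.44, and the ratio of summed levels was 1.29 to 1.42. The change in the ratio of rps8a to rps8b lay between -1.24 and 0.11, and was -1.29 with 0.1 CPM added in place of 0.5. The replicate block gave a median of 0.33 and 10 small subunit genes at an unadjusted p below 0.05, against 11. With the block 4.85% of all transcripts were higher at that p, against 4.18%. Deviations from the group means correlated between same-numbered pools at r = -0.16, 0.18 and 0.48 for pools 1, 2 and 3. Differently numbered pools gave -0.48 to 0.33. These values do not settle whether the pools were paired, so the numbers are not read as pairs. Low counts limit rps8b, and among the other named genes wdr36, rps6ka3b and rps6ka4.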
